A study of Mus musculus with 14 samples.

Results

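The change, between day 3 and day 5 of differentiation, in the difference between Foxk1 knockout (KO) and control embryoid bodies was examined gene by gene as an interaction contrast. The contrast was the KO minus control log2 difference at day 5 less the same difference at day 3, so a positive value means that KO moved up relative to control between the days. It used 8 of the 14 libraries of the series: 2 libraries each of day 3 control, day 3 KO, day 5 control and day 5 KO. Of 36047 genes listed, 14430 passed a filter on low counts and were tested. Genes called in the interaction were then sorted by whether the KO difference reversed, appeared or faded between the days.

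Both lines were mouse embryonic stem cells, grown on feeder cells with serum and LIF, depleted of feeders by a short plating step, and differentiated as shaken embryoid bodies in a medium made to favour mesoderm. The control is a line named iHA-Foxk1, whose libraries carry the tag ND at days 3 and 5, and the other line is named Foxk1 KO. No drug treatment is recorded for these 8 libraries. The labels give 1 line per genotype and do not say whether paired libraries are from different cultures, so p-values measure only the spread between these libraries, and an effect of losing Foxk1 cannot be told apart from any other difference between the lines.

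Embryoid bodies are aggregates of stem cells that pass through stages resembling early development. Cells leave pluripotency and some form a primitive streak-like population under Wnt, Nodal and FGF signals. Streak genes are then silenced as cells become mesoderm, endoderm, heart, vessel and blood. Foxk1 is a forkhead transcription factor known for roles in muscle progenitors, autophagy and glycolysis. A separate programme, driven by the transcription factor Atf4, raises amino acid synthesis and uptake when amino acids are short or protein folding is disturbed.

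The 8 libraries held 10574194 to 11621032 estimated counts, and the limit of 3 counts corresponded to 0.254 to 0.298 CPM in 1 library, where CPM is the count scaled to library size. Foxk1 stood at 86.3 and 76.4 CPM in control and 16.2 and 16.5 CPM in KO at day 3, and at 134 and 133 CPM in control and 38.2 and 33.6 CPM in KO at day 5. It was lower in both KO libraries on both days, and the gap narrowed slightly, with an interaction of 0.42 ± 0.13 (log2 ± SE of the fit, as throughout; edgeR quasi-likelihood adjusted p = 0.0382). That call was lost in 5 of the 8 fits that each left out 1 library, with an adjusted p of 0.149 without day 3 control library 1. Its paralog Foxk2 did not pass the test (-0.24 ± 0.088, adjusted p = 0.0792).

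The day 5 KO pair stood apart. Over genes, the 2 libraries of a group differed by 1.86, 1.87 and 3.89 times the counting noise in day 3 control, day 3 KO and day 5 control, measured as chi-square per degree of freedom, but by 20.5 times in day 5 KO. Day 5 KO library 1 carried more RNA of later mesoderm, with summed blood markers at 445 CPM against 214 CPM in library 2. Library 2 carried more primed epiblast RNA, with summed markers at 1391 CPM against 838 CPM in library 1. The lines also differed in Y-linked RNA, at 13.3 to 16.1 CPM summed over 5 genes in control libraries and 149 to 166 CPM in KO libraries. None of these 5 genes had a called interaction by edgeR or DESeq2, nor an unadjusted p under 0.05. Processed pseudogenes took 1.43% to 1.88% of control counts and 0.836% to 1.03% of KO counts.

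The KO difference changed between the days for 3496 genes (24.2% of those tested) at an edgeR adjusted p under 0.05. It moved upward for 1932 genes (13.4%) and downward for 1564 genes (10.8%). On the single days, 4741 genes (32.9%) differed at day 3, with 16% of genes higher and 16.9% lower in KO. At day 5, 6281 genes (43.5%) differed, with 21.9% higher and 21.7% lower. Each gene has 1 estimate of spread shared by all groups, although the day 5 KO pair was far more spread. The day 5 and interaction tests may thus understate the spread of that pair. A fit without 1 library leaves 1 in its group, whose own spread is then not measured. Counts from such fits, throughout this report, do not show how firm the calls are. Why they rose or fell was not tested. Without day 5 KO library 1 the counts were 2932 upward and 2689 downward, and without day 5 KO library 2 they were 2513 and 2474. Without any 1 of the other 6 libraries they were lower, at 1117 to 1324 upward and 932 to 1156 downward.

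The KO difference reversed its sign for 633 genes (4.39%), each called on both days. Among them, 338 genes (2.34%) were lower in KO at day 3 and higher at day 5, and 295 genes (2.04%) were higher at day 3 and lower at day 5. Reversals from lower to higher numbered 601 without day 5 KO library 1, 490 without day 5 KO library 2 and 181 to 226 without 1 of the other 6; those from higher to lower numbered 590, 571 and 131 to 223.

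A difference appeared at day 5 alone for 753 genes higher in KO (5.22%) and 775 genes lower in KO (5.37%). A day 3 difference faded for 321 genes higher in KO (2.22%) and 487 genes lower in KO (3.37%). Another 251 genes (1.74%) kept the same direction with a larger difference at day 5, 189 genes (1.31%) with a smaller one, and 87 genes (0.603%) were called on neither day alone. Without day 5 KO library 1 or 2, the same-direction counts were 770 and 597 for a larger difference and 314 and 301 for a smaller one; without 1 of the other 6 libraries they were 77 to 167 and 104 to 111. Without any 1 library, the counts of genes that appeared lay between 390 (day 5 control library 1) and 917 (day 5 KO library 1) higher and between 437 and 1087 lower, without the same libraries. Those that faded lay between 152 (day 3 control library 2) and 595 (day 5 KO library 2) higher and between 256 (day 3 KO library 1) and 675 (day 5 KO library 1) lower.

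Of the 189 genes with a smaller difference, 29 were processed pseudogenes, against 344 of the 14430 genes tested; their part in the result was not tested. The day classes rest on thresholds: of 1929 genes called at day 3 alone, 808 had a called interaction, and of 3469 called at day 5 alone, 1528 did.

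**Figure D1:**
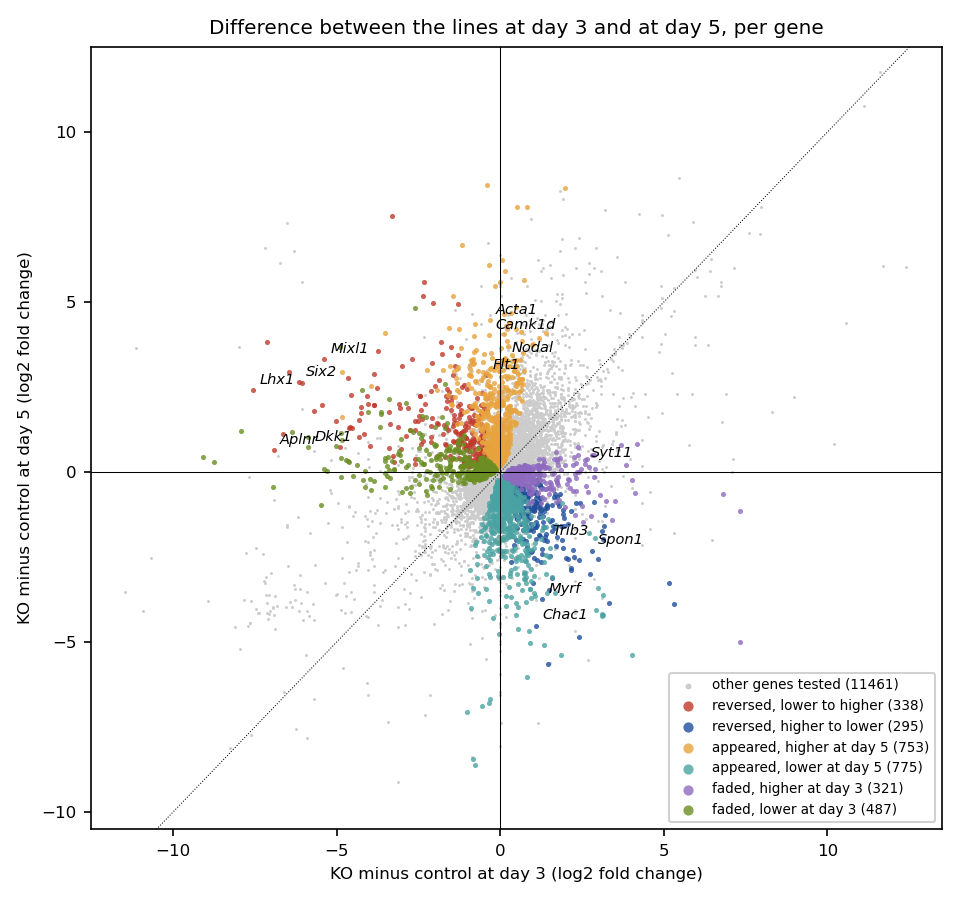
Each point is 1 of the 14430 genes tested, with the KO minus control log2 fold change at day 3 on the x axis and at day 5 on the y axis. The dotted line marks an equal difference on both days. The 338 genes that reversed from lower to higher lie upper left, the 295 that reversed from higher to lower lie lower right, and genes that appeared or faded lie along the axes.

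Primitive streak regulators had the highest median interaction of the 28 lists examined. Of 17 streak genes tested, 15 (88.2%) had an upward interaction; none moved downward by edgeR or DESeq2, and none had an unadjusted p under 0.05 in that direction. By class, 10 genes reversed from lower to higher, 3 faded, 1 appeared at day 5 and 1 was called on neither day alone. At day 3, 14 of the 17 were lower in KO and none was higher, and at day 5, 11 were higher and none was lower. The median interaction was 5.42 on the log2 scale, against 0.03 over all genes tested. The count was 16 without day 5 KO library 1, 15 without day 5 KO library 2 and 13 without any 1 of the other 6 libraries.

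Mixl1, a homeobox gene of the primitive streak, had the smallest interaction p of all genes tested. It stood at 422 and 421 CPM in control and 10.3 and 9.89 CPM in KO at day 3. At day 5 it had dropped to 1.29 and 1.99 CPM in control but stood at 18.6 and 14.4 CPM in KO. Control was thus far above KO on the first day and below it on the second, with no overlap on either (interaction 8.70 ± 0.21, adjusted p = 1.16e-07). Lhx1, a LIM-homeobox gene of axial mesendoderm, stood at 319 and 336 CPM in control and 1.68 and 1.77 CPM in KO at day 3, then at 11.9 and 19.7 CPM in control and 42.6 and 125 CPM in KO at day 5. Its interaction was the largest among the reversing genes named by the rule, at 9.97 ± 1.06 (adjusted p = 0.00434), and KO was lower in both libraries at day 3 and higher in both at day 5.

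The posterior streak regulator Evx1, also a homeobox gene, was 118 and 123 CPM in control and 3.45 and 4.56 CPM in KO at day 3, and 12.5 and 11.8 CPM in control and 18.3 and 22.1 CPM in KO at day 5. The small excess of KO at day 5 followed a control decline and a KO rise (interaction 5.64 ± 0.19, adjusted p = 3.74e-07). Gsc, a homeobox gene of the anterior streak, reversed at lower levels, from 50.1 and 48.4 CPM in control and 1.42 and 2.45 CPM in KO to 0.595 and 0.795 CPM in control and 3.88 and 5.76 CPM in KO (interaction 7.43 ± 0.42, adjusted p = 5.48e-06). T, the Brachyury gene of all nascent mesoderm, faded by the class rule: it was 797 and 849.9 CPM in control and 55.5 and 76.1 CPM in KO at day 3, and 6.94 and 12.3 CPM in control and 20.7 and 44.9 CPM in KO at day 5. The day 5 groups did not overlap, but that difference missed the threshold (adjusted p = 0.0538); the interaction was 5.42 ± 0.65 (adjusted p = 0.00638). Mesp1, which marks cardiac and other anterior mesoderm, was 72.9 and 80 CPM in control and 0.177 and 0.0845 CPM in KO at day 3, where KO held 3 counts in all, and 0.396 and 3.28 CPM in control and 1.35 and 3.58 CPM in KO at day 5. The day 5 groups of Mesp1 overlapped. Of the 2 streak genes without a call, Cdx2 had an interaction of 3.69 ± 1.00 (adjusted p = 0.0548) and Fgf17 one of 0.85 ± 0.42 (adjusted p = 0.171).

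The promoters of 4 of these posterior and streak genes are given to show the sequence on which the motif counts further down were made. Each runs from 250 bases before to 50 bases after the gene's start in RefSeq (GRCm38.p6), on the gene's own strand. Capitals mark a TCF/LEF word, ATCAAAG on either strand, the core of the site bound by the effectors of Wnt signalling, or a T-box word, TCACACC on either strand. Lhx1 and Cyp26a1 had the largest interactions among reversing genes of the lists and hold neither word. Sp5, a zinc-finger target of Wnt signalling, holds CTTTGAT from position -104, and Mesp1 holds CTTTGAT from position -31 and TCACACC from position 5, counted from the start. Those last 2 were chosen after the matches were seen. The fixed rule for printing promoters had picked Lhx1, Cyp26a1, Mesp2 and Gsc, and none of these 4 promoters holds either word. Those of Mesp2 and Gsc are not printed here.
Lhx1, chr11:84525485-84525784, minus strand: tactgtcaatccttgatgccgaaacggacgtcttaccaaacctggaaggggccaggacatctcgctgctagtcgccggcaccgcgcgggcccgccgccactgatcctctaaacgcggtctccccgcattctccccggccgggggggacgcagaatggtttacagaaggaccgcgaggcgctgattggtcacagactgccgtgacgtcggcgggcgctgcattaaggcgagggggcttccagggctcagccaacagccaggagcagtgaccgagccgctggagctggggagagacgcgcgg
Cyp26a1, chr19:37697558-37697857, plus strand: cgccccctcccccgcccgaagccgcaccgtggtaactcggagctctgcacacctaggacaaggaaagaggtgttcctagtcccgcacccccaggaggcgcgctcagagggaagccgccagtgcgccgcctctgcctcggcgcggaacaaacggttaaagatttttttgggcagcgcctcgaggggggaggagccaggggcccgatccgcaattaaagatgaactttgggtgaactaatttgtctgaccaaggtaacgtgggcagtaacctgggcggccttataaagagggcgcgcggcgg
Sp5, chr2:70474673-70474972, plus strand: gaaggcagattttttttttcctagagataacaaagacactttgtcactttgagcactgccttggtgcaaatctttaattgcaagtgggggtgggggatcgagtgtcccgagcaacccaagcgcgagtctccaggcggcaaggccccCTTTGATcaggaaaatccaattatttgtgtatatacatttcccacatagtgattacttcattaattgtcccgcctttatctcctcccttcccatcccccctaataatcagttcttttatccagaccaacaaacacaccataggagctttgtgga
Mesp1, chr7:79793541-79793840, minus strand: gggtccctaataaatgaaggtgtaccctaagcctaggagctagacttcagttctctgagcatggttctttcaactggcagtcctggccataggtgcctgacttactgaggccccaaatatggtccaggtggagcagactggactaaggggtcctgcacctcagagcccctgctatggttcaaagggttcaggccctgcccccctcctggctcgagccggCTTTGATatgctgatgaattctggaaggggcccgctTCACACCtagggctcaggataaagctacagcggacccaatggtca

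Presomitic and posterior mesoderm genes moved the same way in part. Of 8 tested among 14 listed, 5 had an upward interaction and none a downward one by edgeR, DESeq2 or unadjusted p. Cyp26a1, which degrades retinoic acid, was 121 and 131 CPM in control and 1.24 and 1.61 CPM in KO at day 3, and 9.51 and 14 CPM in control and 41.1 and 141 CPM in KO at day 5. KO was lower in both libraries at first and higher in both later, with the 2 day 5 KO libraries far apart (interaction 9.41 ± 1.20, adjusted p = 0.00764). Tbx6, a T-box gene of presomitic mesoderm, was 14.1 and 15.1 CPM in control and 1.06 and 1.44 CPM in KO at day 3, and the day 5 groups overlapped, at 1.39 and 0.994 CPM in control and 1.99 and 1.22 CPM in KO. Six2, a homeobox gene best known in kidney progenitors, was not on that list and reversed from 20.6 and 23.6 CPM in control and 0.177 and 0.422 CPM in KO to 1.88 and 2.09 CPM in control and 13.3 and 11.7 CPM in KO (interaction 8.79 ± 0.38, adjusted p = 1.29e-06). Aplnr, the apelin receptor of nascent mesoderm, was 129.5 and 134 CPM in control and 1.33 and 0.845 CPM in KO at day 3. By day 5 it was 84.5 and 79.3 CPM in control and 153 and 105 CPM in KO, with a far larger rise in KO than fall in control (interaction 7.57 ± 0.36, adjusted p = 4.47e-05).

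**Figure D2:**
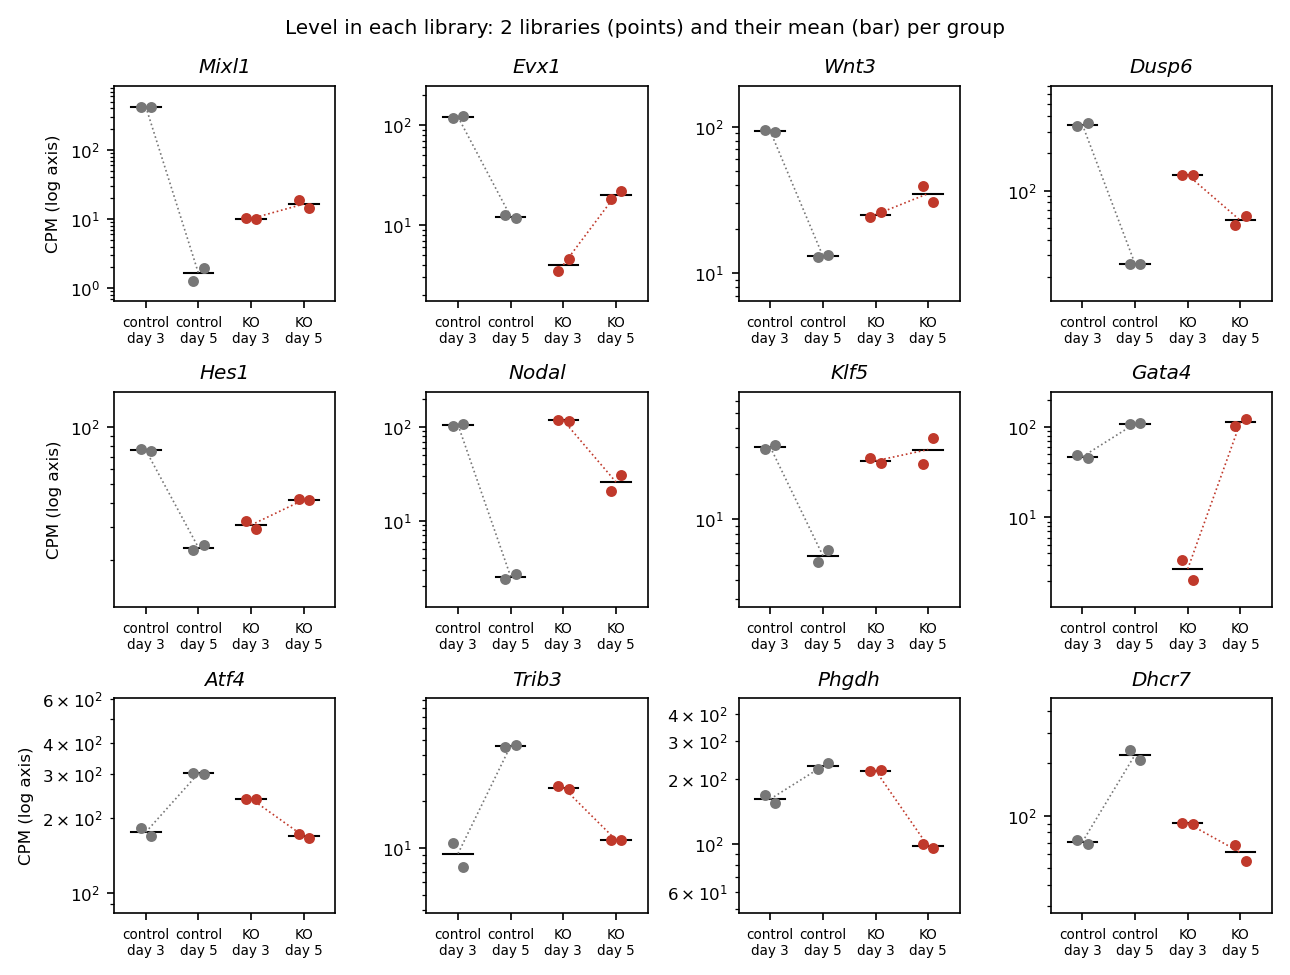
Level of 12 genes in CPM on log axes, with 1 point per library, a bar at the mean of the 2 libraries and dotted lines joining the days within each line. Mixl1, Evx1, Wnt3, Dusp6 and Hes1 were lower in KO at day 3 and higher at day 5; Atf4, Trib3, Phgdh and Dhcr7 show the opposite order; Nodal and Klf5 parted at day 5 and Gata4 met.

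Genes of FGF signalling, which acts on cells leaving the streak, reversed in large part. Of 19 FGF ligands, receptors and ERK feedback genes tested, 12 (63.2%) had an upward and 3 (15.8%) a downward interaction. The shares over all genes tested were 13.4% and 10.8%. The median interaction of the list was 1.64, and 11 members reversed from lower to higher. The count upward was 12 or 13 whichever library was left out. Dusp6, a phosphatase induced by and acting on ERK, was 332 and 351 CPM in control and 132 and 135 CPM in KO at day 3, and 25.4 and 25.5 CPM in control and 52.6 and 61.8 CPM in KO at day 5. Control was higher on the first day and lower on the second without overlap, while both lines fell (interaction 2.52 ± 0.11, adjusted p = 1.29e-06). The feedback inhibitor Spry4 was 70.8 and 70.9 CPM in control and 35.3 and 38.9 CPM in KO at day 3, then 10.2 and 9.84 CPM in control and 25.7 and 30.4 CPM in KO. Spred1, another feedback inhibitor, was 156 and 149 CPM in control and 111 and 104 CPM in KO, then 69.8 and 76.1 CPM in control and 144 and 135 CPM in KO. Their interactions were 2.42 ± 0.15 (adjusted p = 1.21e-05) and 1.45 ± 0.093 (adjusted p = 1.41e-05), and neither day's groups overlapped. The 3 members that moved downward are receptors, chosen for mention after their values were seen: Fgfr3 (-3.76 ± 0.55), Fgfr4 (-2.07 ± 0.43) and Fgfr2 (-1.41 ± 0.30).

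Wnt genes with a called interaction moved upward when all libraries were used. Of 19 Wnt targets and feedback genes tested, 11 had an upward interaction and none a downward one by edgeR or DESeq2, with 1 downward at an unadjusted p under 0.05; 5 reversed, 3 appeared and 3 faded. Of 16 ligands and R-spondins tested among 21 listed, 10 moved upward and none downward by edgeR or DESeq2, with 1 downward at an unadjusted p under 0.05. Wnt3, the ligand needed for streak formation, was 95.1 and 91.9 CPM in control and 24 and 26.1 CPM in KO at day 3, and 12.8 and 13.3 CPM in control and 39.5 and 30.4 CPM in KO at day 5. It lost most of its level in control and rose slightly in KO (interaction 3.32 ± 0.18, adjusted p = 4.62e-06). Axin2, a direct target and inhibitor of the pathway, was 172 and 186 CPM in control and 57.4 and 61.5 CPM in KO, then 50.9 and 51.1 CPM in control and 96.3 and 63.8 CPM in KO (interaction 2.24 ± 0.26, adjusted p = 0.00176). The ligand and this target both crossed from below to above control. Rspo3, a secreted enhancer of Wnt signalling, was 34 and 33 CPM in control and 2.83 and 4.14 CPM in KO at day 3, and its day 5 groups overlapped, at 28.7 and 36.2 CPM in control and 33.7 and 34.7 CPM in KO. The antagonist Dkk1 was 24.3 and 22.4 CPM in control and 0.354 and 0.422 CPM in KO at day 3, and 21.8 and 21.4 CPM in control and 23.2 and 48.3 CPM in KO at day 5, where the difference was not called (interaction 6.60 ± 0.69, adjusted p = 0.00112). Without day 5 KO library 2, 2 targets and 1 ligand moved downward, and 1 target did so without day 5 control library 2 or day 5 KO library 1. The target count fell to 7 without day 3 control library 2, day 3 KO library 1 or day 3 KO library 2. The ligand count fell to 5 without day 3 control library 2, day 3 KO library 1 or day 5 control library 1, and to 6 without day 3 KO library 2.

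Nodal, the TGF-beta family ligand that patterns the streak, was called at day 5 alone. It was 104 and 107 CPM in control and 119 and 118 CPM in KO at day 3, and 2.38 and 2.68 CPM in control and 20.7 and 31.1 CPM in KO at day 5, where the groups did not overlap (interaction 3.19 ± 0.29, adjusted p = 0.000252). Its target and antagonist Lefty2 was 125 and 119 CPM in control and 85.5 and 80.3 CPM in KO, then 3.37 and 3.18 CPM in control and 13.7 and 19.3 CPM in KO, a reversal (interaction 2.89 ± 0.22, adjusted p = 3.57e-05). Furin, a protease that processes Nodal, went the other way, from 61.9 and 58.5 CPM in control and 77.7 and 77.8 CPM in KO to 281 and 278 CPM in control and 173 and 157 CPM in KO (interaction -1.13 ± 0.088, adjusted p = 3.55e-05). Of 18 Nodal pathway genes tested, 9 (50%) moved upward and 1 (5.56%) downward, against 13.4% and 10.8% of all genes tested. The upward count fell to 4 without day 3 control library 1, day 3 KO library 2 or day 5 control library 1, to 5 without day 3 control library 2, day 3 KO library 1 or day 5 control library 2, and the downward count rose to 4 without day 5 KO library 1 and 2 without day 5 KO library 2.

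Among Notch genes, 9 of 13 tested moved upward and none moved downward by edgeR, DESeq2 or unadjusted p, with a median interaction of 2.34. Hes1, the main transcriptional target, was 76.3 and 74.8 CPM in control and 32.3 and 29.1 CPM in KO at day 3, and 22.7 and 23.9 CPM in control and 41.8 and 41.4 CPM in KO at day 5. The lines changed places with no overlap on either day (interaction 2.13 ± 0.12, adjusted p = 5.48e-06). Nrarp, a feedback inhibitor, was 32.3 and 28.2 CPM in control and 10.8 and 11.8 CPM in KO, then 4.56 and 6.86 CPM in control and 15.4 and 15.6 CPM in KO (interaction 2.87 ± 0.25, adjusted p = 7.01e-05). Dll3, a Notch ligand of presomitic mesoderm, was 44.7 and 44.1 CPM in control and 6.46 and 6.17 CPM in KO, then 1.39 and 2.48 CPM in control and 4.7 and 9.51 CPM in KO (interaction 4.69 ± 0.47, adjusted p = 0.000381). The count was 8 to 10 over the fits that each left out 1 library.

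Naive pluripotency genes were seldom called at day 3 (2 of 22 higher and 3 lower in KO) and mostly higher in KO at day 5 (19 of 22). Of 22 naive pluripotency genes tested, 17 had an upward interaction and none a downward one by edgeR, DESeq2 or unadjusted p; 13 appeared, 2 reversed, 1 faded and 1 kept its direction. Their median KO difference was 0.04 at day 3 and 2.80 at day 5, and 19 of the 22 fell in control between the days. Klf5, a naive-state transcription factor, was 29 and 30.9 CPM in control and 25.2 and 23.3 CPM in KO at day 3, and 5.25 and 6.26 CPM in control and 23.1 and 34.5 CPM in KO at day 5. Klf5 fell in control, while its change in KO did not pass the test (interaction 2.62 ± 0.27, adjusted p = 0.000205). Klf2, of the same family, was 17.7 and 19.3 CPM in control and 15.8 and 18.2 CPM in KO, then 3.96 and 4.87 CPM in control and 14.2 and 21.6 CPM in KO (interaction 2.14 ± 0.30, adjusted p = 0.00108). The naive marker Zfp42 was 38.2 and 34.1 CPM in control and 11.7 and 10.7 CPM in KO at day 3, and 3.27 and 5.56 CPM in control and 6.95 and 8.81 CPM in KO at day 5, a reversal at low level (interaction 2.53 ± 0.31, adjusted p = 0.000435). Summed over the list, control went from 2972 and 3010 CPM to 896 and 918 CPM, and KO from 2975 and 3047 CPM to 1391 and 1822 CPM. The count was 21 without day 5 KO library 1 and 20 without day 5 KO library 2, and fell to 11 without day 5 control library 1.

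Primed epiblast genes were split, with 35.7% upward and 7.14% downward, against 13.4% and 10.8% of all genes tested. Of 14 tested, 5 moved upward and 1 downward, and the upward count fell to 2 without day 3 control library 1, day 3 KO library 1 or day 5 control library 1, to 3 without any 1 of day 3 control library 2, day 3 KO library 2 and day 5 control library 2, and rose to 10 without day 5 KO library 1 and 8 without day 5 KO library 2; 2 moved downward without day 5 control library 2 or day 5 KO library 1. Zic2 was 206 and 222 CPM in control and 106 and 104 CPM in KO at day 3, and 4.26 and 4.57 CPM in control and 16.8 and 30.7 CPM in KO at day 5 (interaction 3.45 ± 0.41, adjusted p = 0.00282). Fgf5, the ligand that marks the primed state, was 126 and 133 CPM in control and 75.6 and 77.3 CPM in KO, then 1.98 and 2.88 CPM in control and 20.7 and 78.6 CPM in KO. Its interaction was 5.11 ± 1.12 (adjusted p = 0.0362), a call lost in 6 of the 8 fits that left out 1 library (adjusted p of 0.123 without day 5 control library 1). Dnmt3a, a DNA methyltransferase, was the downward member, at 181 and 187 CPM in control and 249 and 252 CPM in KO, then 172 and 165 CPM in control and 103 and 89.6 CPM in KO (interaction -1.26 ± 0.093, adjusted p = 2.67e-05).

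Other genes whose excess in KO appeared at day 5 are not of these groups. Acta1, skeletal muscle alpha-actin, was 5.28 and 5.72 CPM in control and 4.78 and 4.06 CPM in KO at day 3, and 1.39 and 0.795 CPM in control and 22.3 and 26.5 CPM in KO at day 5 (interaction 4.79 ± 0.35, adjusted p = 2.49e-05); its coding sequence closely resembles that of other actins, so the assignment of reads is uncertain. Camk1d, a calcium-dependent kinase, was 10.5 and 8.01 CPM in control and 7.25 and 7.44 CPM in KO, then 0.793 and 0.894 CPM in control and 14 and 14 CPM in KO (interaction 4.36 ± 0.32, adjusted p = 2.74e-05). Both fell in control and rose in KO. Coch, a secreted matrix protein, was 16.6 and 15.6 CPM in control and 7.34 and 6.17 CPM in KO at day 3, a difference that was not called. It was 1.69 and 2.29 CPM in control and 17.2 and 56.9 CPM in KO at day 5, and its interaction call (5.47 ± 0.98, adjusted p = 0.0154) was lost in 4 of the 8 fits (adjusted p of 0.0694 without day 5 control library 1). The germ cell helicase Ddx4 was 11.4 and 10.8 CPM in control and 16.6 and 14.4 CPM in KO at day 3, and 0 and 0.199 CPM in control and 2.35 and 4.01 CPM in KO at day 5, where control held 2 counts.

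Several cardiac regulators were lower in KO at day 3 and closer to control at day 5 on the log2 scale. The median KO difference of the list was -3.15 at day 3 and -1.21 at day 5. More members were called lower in KO at day 5 (12, with 1 higher) than at day 3 (8, with 1 higher). Summed over the list, control was 328 and 309 CPM and KO 27.6 and 23.8 CPM at day 3. At day 5, control was 2310 and 2138 CPM and KO 1106 and 683.5 CPM. Of 17 cardiac regulators tested, 7 (41.2%) moved upward and 3 (17.6%) downward, against 13.4% and 10.8% of all genes tested. By class, 3 faded, 4 kept their direction with a smaller difference and 3 appeared lower at day 5. Without day 5 KO library 2, 5 moved downward. Gata4, a zinc-finger factor of heart and endoderm, was 48.8 and 45.2 CPM in control and 3.36 and 2.03 CPM in KO at day 3, and 109 and 109.5 CPM in control and 103 and 122 CPM in KO at day 5. The day 5 groups overlapped after a rise in KO (interaction 4.17 ± 0.21, adjusted p = 4.62e-06). Gata6 was 60.1 and 56.2 CPM in control and 0.531 and 0.422 CPM in KO, then 95.7 and 90 CPM in control and 51.3 and 54.6 CPM in KO, still lower in KO without overlap (interaction 6.09 ± 0.19, adjusted p = 2.8e-07). Hand2 was 2.64 and 2.29 CPM in control with no count in either KO library at day 3, and 101 and 91.8 CPM in control and 17.3 and 19.6 CPM in KO at day 5. Kdr, the VEGF receptor of vessel and blood precursors, was 109 and 102 CPM in control and 5.66 and 4.48 CPM in KO, then 166 and 148 CPM in control and 240.2 and 124 CPM in KO with overlap (interaction 4.59 ± 0.57, adjusted p = 0.00607). In bulk RNA, fewer cells of a type and less RNA per cell cannot be told apart, for these and all genes below.

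Among BMP pathway genes, 9 of 19 tested (47.4%) moved upward and 2 (10.5%) downward, against 13.4% and 10.8% of all genes tested. The downward share lay near that over all genes. Of the 9, 4 kept a smaller deficit at day 5. Without day 5 KO library 1 the downward count was 5. Msx1, a homeobox target of BMP, was 67.9 and 73.3 CPM in control and 3.71 and 4.65 CPM in KO at day 3, and 198 and 189 CPM in control and 80.5 and 68.7 CPM in KO at day 5 (interaction 2.70 ± 0.16, adjusted p = 8.33e-06). Bmper, a secreted BMP modulator, was 19.5 and 18.6 CPM in control and 0.619 and 0.93 CPM in KO, then 6.64 and 13.1 CPM in control and 17.4 and 31.6 CPM in KO (interaction 5.90 ± 0.67, adjusted p = 0.00131). The day 5 difference of Msx1 was -1.38, against -4.07 at day 3. The BMP target Id1 reversed, from 48 and 50.9 CPM in control and 27 and 24.5 CPM in KO to 79.2 and 83.5 CPM in control and 98.4 and 96.8 CPM in KO, while Id2 reversed the opposite way, from 10.6 and 8.54 CPM in control and 18.8 and 16 CPM in KO to 106 and 107 CPM in control and 61 and 46.4 CPM in KO. Their interactions were 1.21 ± 0.10 (adjusted p = 7.23e-05) and -1.85 ± 0.22 (adjusted p = 0.00052).

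Among other genes that faded, Wnt5a and Frzb, a secreted ligand and a secreted inhibitor of Wnt signalling, had widely spread day 5 KO libraries. Wnt5a was 29.1 and 25.5 CPM in control and 0.354 and 0.93 CPM in KO at day 3, and 95.3 and 83.5 CPM in control and 138 and 52.1 CPM in KO at day 5. Frzb was 94.4 and 95.3 CPM in control and 2.21 and 3.63 CPM in KO, then 25.7 and 24.7 CPM in control and 14.5 and 71.2 CPM in KO. Both day 5 KO pairs spanned the control values, and each interaction call (5.46 ± 1.15 and 5.78 ± 1.24, adjusted p = 0.0307 and 0.0338) was lost in 6 of the 8 fits that left out 1 library, with an adjusted p of 0.101 for each without day 3 KO library 1. Genes higher in KO at day 3 alone included Syt11, a synaptotagmin of vesicle traffic, at 9.86 and 10.2 CPM in control and 64.5 and 55.7 CPM in KO, then 12.1 and 10.8 CPM in control and 13.8 and 13.4 CPM in KO (interaction -2.33 ± 0.17, adjusted p = 2.74e-05). The cationic amino acid transporter Slc7a3 was 58.7 and 57.9 CPM in control and 189.5 and 189.6 CPM in KO, then 50.7 and 51.1 CPM in control and 16 and 39.6 CPM in KO (interaction -2.57 ± 0.52, adjusted p = 0.026); that call was lost in 6 of the 8 fits (adjusted p of 0.0929 without day 3 control library 2). Plvap, a protein of endothelial fenestrae, was 3.17 and 3.43 CPM in control and 16.7 and 16.1 CPM in KO, then 9.32 and 3.97 CPM in control and 5.42 and 3.58 CPM in KO (interaction -2.87 ± 0.52, adjusted p = 0.00514). In these 3 genes the day 3 groups were far apart and the day 5 difference was not called. The innate immune sensor Nod1 was 1.5 and 0.616 CPM in control and 13.9 and 13.7 CPM in KO, then 3.07 and 2.38 CPM in control and 2.8 and 6.63 CPM in KO, with the call (-2.90 ± 0.66, adjusted p = 0.0136) lost in 4 of the 8 fits (adjusted p of 0.0763 without day 5 control library 1). Pakap overlaps Akap2 in the annotation, so its reads cannot be assigned with certainty, and no fold is given for it.

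In the opposite direction, genes of the amino acid and endoplasmic reticulum stress response tended to be higher in KO at day 3 and lower at day 5. Of 20 tested, 17 (85%) moved downward and 1 upward, with a median interaction of -0.94. Of the 17, 8 reversed from higher to lower, 5 appeared lower at day 5 and 2 faded from higher. At day 3, 11 were higher and 3 lower in KO; at day 5, 2 were higher and 15 lower. In control 18 of the 20 rose between the days, and in KO 4 rose and 9 fell. The downward count was 18 without day 5 KO library 1, 17 without day 5 KO library 2 and 14 to 16 without 1 of the other 6 libraries.

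Atf4, the transcription factor that drives the response, was 181 and 169 CPM in control and 238 and 239 CPM in KO at day 3, and 303 and 301 CPM in control and 172 and 165 CPM in KO at day 5. KO was higher in both libraries on the first day and lower in both on the second (interaction -1.29 ± 0.072, adjusted p = 5.48e-06). Trib3, a pseudokinase induced by Atf4, was 10.8 and 7.57 CPM in control and 25.2 and 23.9 CPM in KO, then 45.1 and 46.6 CPM in control and 11.2 and 11.3 CPM in KO (interaction -3.44 ± 0.21, adjusted p = 9.68e-06). Chac1, a glutathione-degrading enzyme and Atf4 target, had the largest downward interaction among the reversing genes named by the rule. It was 5.63 and 3.96 CPM in control and 11.2 and 9.21 CPM in KO, then 29.6 and 36.1 CPM in control and 1.72 and 1.13 CPM in KO (interaction -5.61 ± 0.35, adjusted p = 1.15e-05). The lines again changed places with no overlap on either day.

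Serine synthesis enzymes were among these genes. Phgdh, its first enzyme, was 168 and 155 CPM in control and 218 and 219.7 CPM in KO at day 3, and 222 and 237 CPM in control and 99.3 and 95.1 CPM in KO at day 5 (interaction -1.68 ± 0.085, adjusted p = 3.16e-06). Psat1, the next enzyme, was not called at day 3, at 239 and 223 CPM in control and 242 and 244 CPM in KO, and was 264 and 288 CPM in control and 109.6 and 106 CPM in KO at day 5 (interaction -1.43 ± 0.083, adjusted p = 7.17e-06). The single upward member, named after its values were seen, was Ddit4, an inhibitor of mTORC1, at 70.3 and 63.4 CPM in control and 56.2 and 49.3 CPM in KO, then 76.7 and 88.1 CPM in control and 104 and 102 CPM in KO (interaction 0.66 ± 0.13, adjusted p = 0.00559). The 2 members without a call were Slc7a11 (-0.95 ± 0.32, adjusted p = 0.0597) and Dnajb9 (-0.13 ± 0.24, adjusted p = 0.738).

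Other leaders of the higher-to-lower class came from several tissues. Myrf, a membrane-anchored transcription factor known from myelination, was 31.3 and 32.8 CPM in control and 78.8 and 76.6 CPM in KO at day 3, and 346 and 301 CPM in control and 26.2 and 22 CPM in KO at day 5 (interaction -5.03 ± 0.13, adjusted p = 1.16e-07). In Myrf control rose and KO fell. Spon1, a secreted matrix protein, was 2.02 and 2.29 CPM in control and 15.9 and 14.3 CPM in KO, then 63.1 and 50 CPM in control and 12.2 and 10.6 CPM in KO (interaction -5.11 ± 0.24, adjusted p = 2.27e-06). Synpo2, an actin-binding protein of muscle, was 1.58 and 1.23 CPM in control and 3.71 and 4.22 CPM in KO, then 16.8 and 15.9 CPM in control and 1.08 and 1.83 CPM in KO (interaction -4.96 ± 0.41, adjusted p = 4.79e-05).

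Several heart, matrix and blood genes that rose in control by day 5 rose less, or were not called as rising, in KO, so that deficits appeared. Smyd1, a muscle histone methyltransferase, was 0.264 and 0.0881 CPM in control and 0.177 and 0.338 CPM in KO at day 3, and 20.5 and 19.1 CPM in control against 0.542 and 1.05 CPM in KO at day 5. Gata5 was 0.088 and 0.44 CPM in control and 0.884 and 0.592 CPM in KO at day 3, and 27.1 and 21.6 CPM in control against 1.81 and 2.27 CPM in KO at day 5 (interaction -5.01 ± 0.69, adjusted p = 0.000878). Smarcd3, a cardiac chromatin remodeller subunit, was 3.17 and 2.99 CPM in control and 4.07 and 3.8 CPM in KO, then 73.6 and 82.3 CPM in control and 14.8 and 17.2 CPM in KO (interaction -2.63 ± 0.21, adjusted p = 4.36e-05). Day 5 groups were well apart in all 3 genes. The interaction of Smyd1 was -5.14 ± 0.94 (adjusted p = 0.00394), which became 0.0692 without day 3 KO library 2. Popdc2 and Cited4 held 1 to 11 counts in a day 3 group. At day 5, Popdc2 was 34.9 and 32.8 CPM in control and 1.35 and 0.611 CPM in KO, and Cited4 was 26.7 and 26.7 CPM in control and 3.34 and 1.05 CPM in KO. The groups of neither gene overlapped at day 5.

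Of 19 fibroblast and matrix genes tested, 7 (36.8%) moved downward and 1 (5.26%) upward, against 10.8% and 13.4% of all genes tested. Col1a2, a fibrillar collagen chain, was 6.96 and 8.37 CPM in control and 5.13 and 6.08 CPM in KO at day 3, and 391 and 303 CPM in control and 30.2 and 33.2 CPM in KO at day 5 (interaction -3.01 ± 0.28, adjusted p = 0.000313). Fn1, fibronectin, was the upward member, at 2354 and 2342 CPM in control and 428 and 416 CPM in KO, then 3004 and 2987 CPM in control and 3374 and 2233 CPM in KO with overlap (interaction 2.38 ± 0.28, adjusted p = 0.00503). The downward count was 11 without day 5 KO library 1, 9 without day 5 KO library 2 and 4 without either day 3 control library; the upward count was 3 without day 5 KO library 1 and 6 without day 5 KO library 2. Dcn, a proteoglycan of fibroblasts, was 0.088 and 0 CPM in control and 0.531 and 0.422 CPM in KO at day 3, and 3.67 and 1.69 CPM in control and 0.181 and 0.0872 CPM in KO at day 5. This list also marks feeder fibroblasts, whose part in the result was not tested. Its summed level was 2607 and 2634 CPM in control and 870 and 899 CPM in KO at day 3. At day 5 it was 5816 and 6267 CPM in control and 3395 and 5755 CPM in KO. Fn1 made up most of the control sum at day 3, so that sum does not describe the other members. At day 3, 4 of the 19 genes were higher and 1 was lower in KO. At day 5, 3 were higher and 7 lower.

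Of 20 blood genes tested, 4 (20%) moved downward and 1 (5%) upward, against 10.8% and 13.4% of all genes tested. Gata1, the erythroid regulator, was 0.44 and 0.264 CPM in control and 0.354 and 0.507 CPM in KO at day 3, and 30.7 and 37.9 CPM in control against 4.51 and 3.75 CPM in KO at day 5 (interaction -3.34 ± 0.60, adjusted p = 0.00373). Epor, the erythropoietin receptor, was 4.4 and 4.58 CPM in control and 5.48 and 4.73 CPM in KO, then 25.7 and 34.6 CPM in control and 7.95 and 4.1 CPM in KO (interaction -2.51 ± 0.42, adjusted p = 0.00315). By DESeq2 the downward count was 7. It was 13 without day 5 KO library 1 and 7 without day 5 KO library 2, 2 without any 1 of both day 3 KO libraries, day 3 control library 1 and day 5 control library 1, and the upward count was 2 without day 5 KO library 1 and 4 without day 5 KO library 2. The upward member, the stem cell factor receptor Kit (0.79 ± 0.18, adjusted p = 0.0157), lost its call in 5 of the 8 fits. Among 18 sarcomere and heart muscle genes, 4 (22.2%) moved downward and 1 (5.56%) upward. Hcn4, the pacemaker channel, reversed from 0.616 and 0.44 CPM in control and 1.77 and 3.21 CPM in KO to 19.7 and 16 CPM in control and 2.62 and 4.62 CPM in KO (interaction -4.51 ± 0.58, adjusted p = 0.000604), and Tnnc1, a troponin, went upward (2.11 ± 0.42, adjusted p = 0.00654). The downward count was 6 without day 5 KO library 1, 1 without day 3 control library 1 or day 5 control library 2, and 2 without either day 3 KO library or day 5 control library 1; the upward count was 2 without day 3 control library 2 and 3 without day 5 KO library 1.

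Some other KO differences kept their direction and widened. Of 16 genes of the epithelial to mesenchymal switch, 9 moved upward and none downward by edgeR, DESeq2 or unadjusted p. Of the 9, 4 had a larger excess in KO at day 5 than at day 3. Another 2 appeared higher at day 5, 2 faded from lower and 1 reversed. Cdh1, E-cadherin, was 385 and 379.7 CPM in control and 694 and 678 CPM in KO at day 3, and 78.4 and 92.4 CPM in control and 414 and 576 CPM in KO at day 5 (interaction 1.69 ± 0.23, adjusted p = 0.00528). Its mesenchymal counterpart Cdh2, N-cadherin, also moved upward, from 266 and 273 CPM in control and 29.7 and 27.2 CPM in KO to 186 and 179 CPM in control and 208 and 242 CPM in KO, a reversal (interaction 3.55 ± 0.11, adjusted p = 2.8e-07). Snai1, a repressor of E-cadherin, was 80 and 85.4 CPM in control and 3.63 and 6.93 CPM in KO, then 24.5 and 24.3 CPM in control and 21.8 and 11.9 CPM in KO (interaction 3.42 ± 0.47, adjusted p = 0.00426). The upward count was 4 without day 3 control library 1 and 5 without any 1 of day 3 control library 2, the day 3 KO libraries and the day 5 control libraries; 1 gene moved downward without day 5 KO library 1.

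Of 17 p53 targets, 7 (41.2%) moved upward and 1 (5.88%) downward, against 13.4% and 10.8% of all genes tested. Of the 7, 6 had a larger excess at day 5. Pmaip1, a pro-apoptotic BH3 protein, was 35 and 34.2 CPM in control and 302 and 298 CPM in KO, then 4.66 and 6.36 CPM in control and 194 and 201 CPM in KO (interaction 2.04 ± 0.13, adjusted p = 1.36e-05). Perp, a desmosomal p53 target, was 16.3 and 13.6 CPM in control and 28.5 and 29.2 CPM in KO, then 15.6 and 13.3 CPM in control and 79.5 and 80.2 CPM in KO (interaction 1.52 ± 0.16, adjusted p = 0.000197). KO was higher in every library on both days. The upward count was 12 without day 5 KO library 2 and 7 or 8 without any other library, and the downward count was 3 without day 5 KO library 1, 2 without day 5 KO library 2 and 0 without any other. Of the genes with the largest change within 1 direction, Slc4a11, a membrane transporter, was 5.55 and 6.08 CPM in control and 14 and 13.5 CPM in KO, then 0.694 and 1.29 CPM in control and 30.4 and 35.8 CPM in KO (interaction 3.80 ± 0.31, adjusted p = 4.89e-05). Mab21l2 widened downward, from 11.8 and 11.9 CPM in control and 5.22 and 7.27 CPM in KO to 22.1 and 16.7 CPM in control and 0.361 and 0.785 CPM in KO (interaction -4.12 ± 0.43, adjusted p = 0.000193).

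Glycolysis and hypoxia genes split within each list. Of 22 glycolysis genes, 8 (36.4%) moved upward and 4 (18.2%) downward, against 13.4% and 10.8% of all genes tested. The muscle-type pyruvate kinase Pkm was 3084 and 3136 CPM in control and 3222 and 3248 CPM in KO at day 3, and 1268 and 1442 CPM in control and 2318 and 2413 CPM in KO at day 5 (interaction 0.75 ± 0.077, adjusted p = 0.000244). The 2 hexokinases parted: Hk2 moved upward (0.67 ± 0.084, adjusted p = 0.000532) and Hk1 downward (-1.10 ± 0.13, adjusted p = 0.000372). The upward count fell to 4 without day 3 control library 2 or day 3 KO library 1, and to 5 without day 3 control library 1 or day 3 KO library 2. Of 16 hypoxia genes, 4 (25%) moved upward and 5 (31.2%) downward, against 13.4% and 10.8% of all genes tested. Vegfa, the vascular growth factor, was 12.3 and 12.2 CPM in control and 24.6 and 21.6 CPM in KO, then 119 and 110.3 CPM in control and 71.8 and 73.4 CPM in KO (interaction -1.57 ± 0.12, adjusted p = 3.98e-05). Without day 3 KO library 2 the counts were 2 and 3, and without day 3 KO library 1 or day 5 control library 1 they were 3 and 3.

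The counts of the remaining lists stand beside shares of 13.4% upward and 10.8% downward over all genes tested. Upward and downward shares were 28.6% and 14.3% for endoderm, 16.7% and 11.1% for endothelial and 4.76% and 14.3% for cell cycle genes. Those of endothelial genes lay near the shares over all genes. The downward share was 5.26% for Hox genes. Upward shares were 23.1% for neural, 55.6% for germ cell and 22.2% for trophoblast genes. Of 21 endoderm genes, 6 moved upward and 3 downward, and without day 5 KO library 1 the downward count was 6. The chemokine receptor Cxcr4 was 24.5 and 24.1 CPM in control and 1.59 and 1.1 CPM in KO, then 15.8 and 20.5 CPM in control and 34.8 and 43.6 CPM in KO (interaction 5.28 ± 0.29, adjusted p = 4.81e-06). Of 18 endothelial genes, 3 moved upward and 2 downward, while the downward count was 10 without day 5 KO library 1 and 1 without any day 3 or control library, and the upward count 6 without day 5 KO library 2. Flt1, a VEGF receptor, was 31.1 and 30.6 CPM in control and 24.1 and 21.6 CPM in KO, then 23.4 and 26.7 CPM in control and 189.6 and 173 CPM in KO (interaction 3.28 ± 0.13, adjusted p = 1.2e-06). Of 21 cell cycle genes, 1 moved upward and 3 downward, with upward counts of 0 to 2 and downward counts of 1 to 6 over the fits that each left out 1 library, the highest without day 5 KO library 1. The largest of these interactions was that of Ccne1, a cyclin of S-phase entry (-0.64 ± 0.13, adjusted p = 0.00588). Of 19 Hox genes tested, 1 moved downward, and the count was 7 without day 5 KO library 1, 4 without day 5 KO library 2 and 4 by DESeq2. The counts upward were 3 of 13 neural genes, 5 of 9 germ cell genes and 2 of 9 trophoblast genes. Tfap2c, a germ cell and trophoblast regulator, reversed from 19.6 and 22.4 CPM in control and 8.76 and 10.7 CPM in KO to 2.08 and 4.17 CPM in control and 19.5 and 17.4 CPM in KO (interaction 3.67 ± 0.34, adjusted p = 9.83e-05). The germ cell count was 3 without day 3 control library 2, day 3 KO library 2 or either day 5 control library, and the trophoblast count was 1 without day 3 control library 1 and 5 without day 5 KO library 1.

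**Figure D3:**
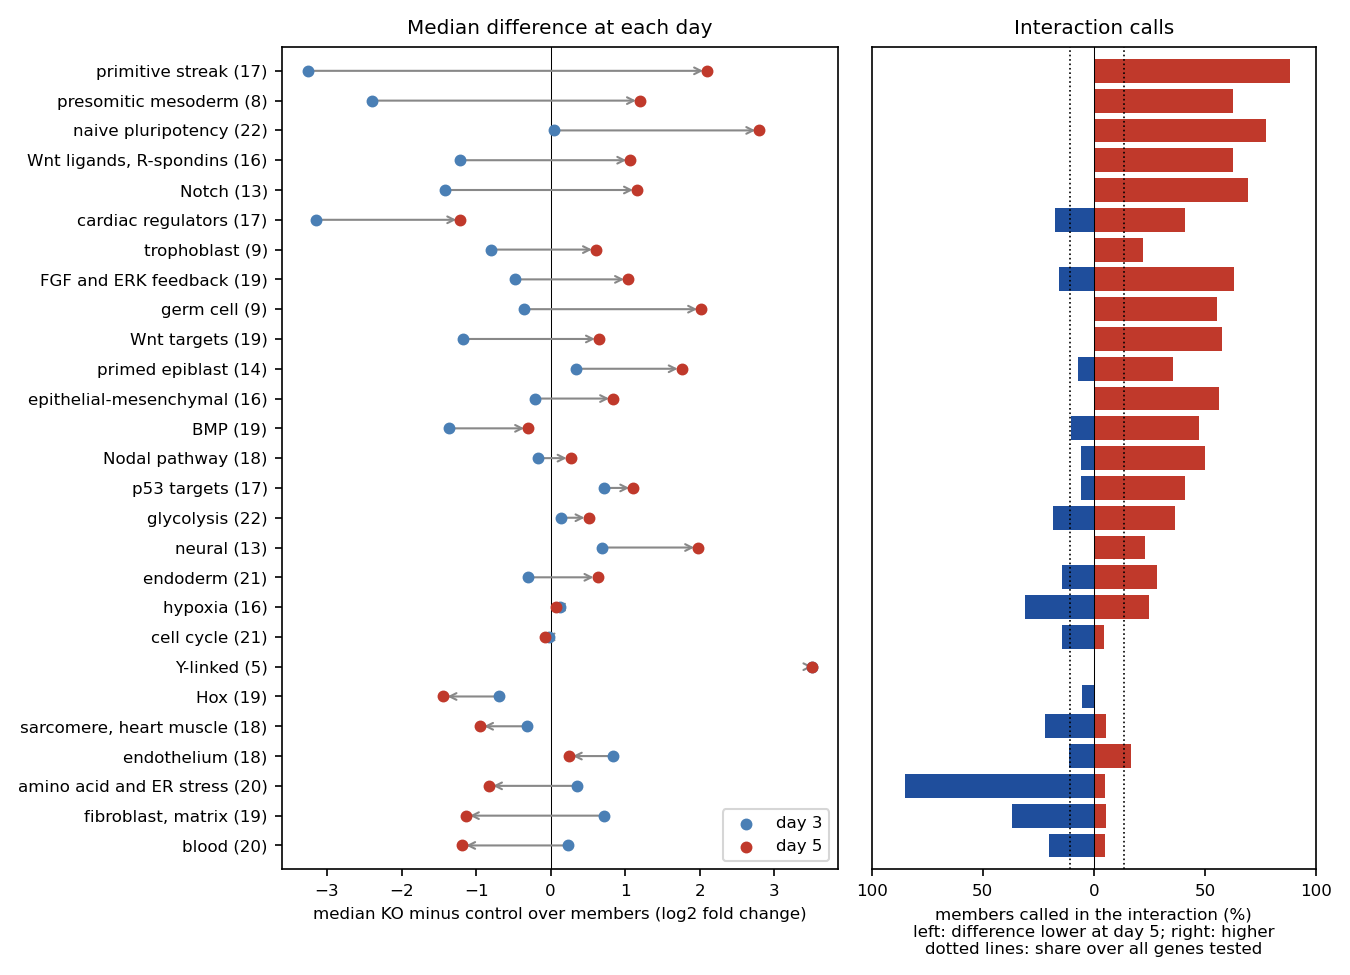
All lists but the pair Foxk1 and Foxk2 are shown. Left, the median KO minus control log2 fold change over the tested members of each list (number in brackets) at day 3 and at day 5, joined by an arrow. Right, the percent of members called in the interaction in each direction, with dotted lines at 13.4% upward and 10.8% downward for all genes tested; primitive streak genes reach 88.2% upward and the amino acid and endoplasmic reticulum (ER) stress genes 85% downward.

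The interaction equals the KO course less the control course, so each class can be read by which line moved. Control changed from day 3 to day 5 at 8780 genes (60.8%), with 30.6% of genes rising and 30.2% falling. KO changed at 7766 genes (53.8%), with 28.3% rising and 25.5% falling. Of the 338 genes that reversed from lower to higher, 250 fell and 40 rose in control, and 193 rose and 62 fell in KO; 105 fell in control and rose in KO. Their median course was -0.95 in control and 0.49 in KO. Of the 295 that reversed from higher to lower, 252 rose and 10 fell in control, and 58 rose and 138 fell in KO, with medians of 1.32 and -0.26. Where an excess appeared at day 5, control fell at 555 of 753 genes and KO at 211, and where a deficit appeared, control rose at 630 of 775 genes and KO at 248. Both KO differences of a gene share their libraries with its interaction, so these counts describe the classes and are no further test.

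**Figure D4:**
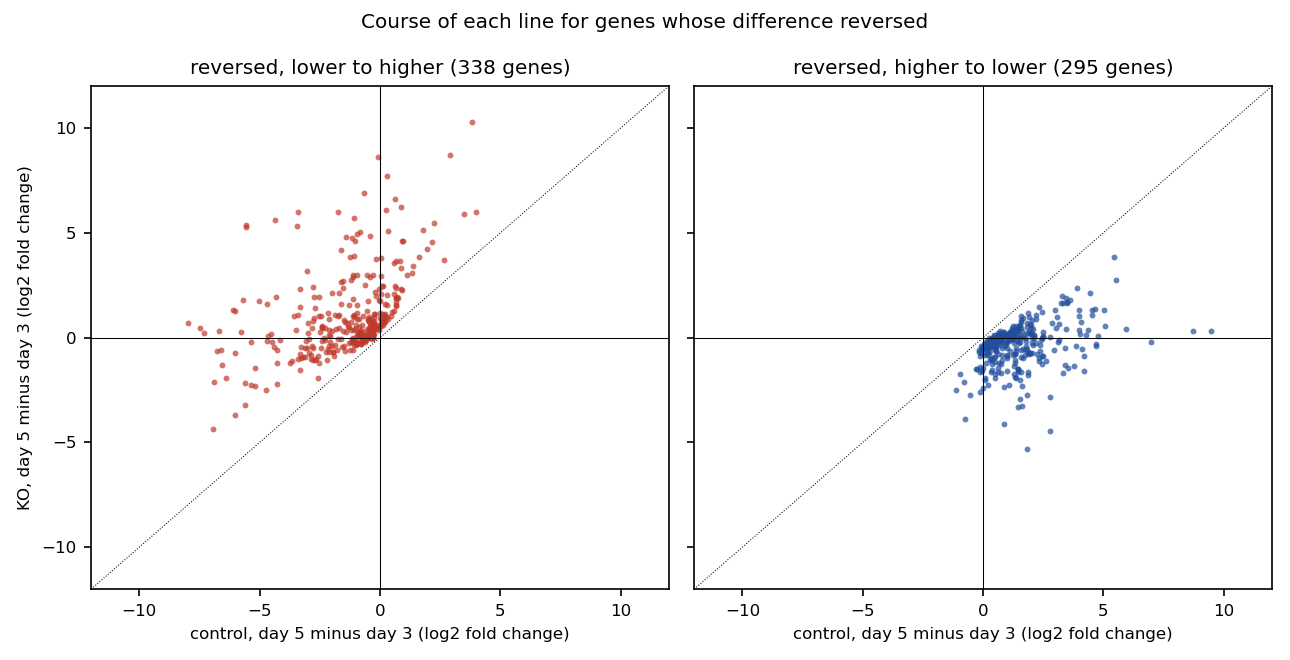
Day 5 minus day 3 log2 fold change in control (x axis) and in KO (y axis) for the 338 genes that reversed from lower to higher (left) and the 295 that reversed from higher to lower (right); the dotted line marks equal courses. Most points of the left panel lie left of 0 in control (250 genes called as falling), and most of the right panel lie right of 0 (252 called as rising).

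At day 10 few genes of the reversing classes were called, but in both directions a larger share of them than of all genes tested. The day 10 libraries were fitted apart and had larger replicate spread, with a biological coefficient of variation over genes of 0.248, against 0.0915 at days 3 and 5. At day 10, the 2 KO libraries without the IWR1 label differed from the 2 control libraries at 897 of 17022 genes (5.27%), with 327 higher (1.92%) and 570 lower (3.35%). Foxk1 itself was not called there, at a mean of 72.5 CPM in control and 56.6 CPM in KO (-0.36 ± 0.39, edgeR adjusted p = 0.722). The day 10 control is labelled only as control, without the iHA-Foxk1 name. These libraries were also deeper, at 34999822 to 41539510 estimated counts. Whether the day 10 comparison is the same contrast as at days 3 and 5 was not tested. Of the 338 genes that reversed from lower to higher, 334 were tested at day 10, and 12 were higher and 16 lower in KO (3.59% and 4.79%). Of the 295 that reversed from higher to lower, 23 were higher and 20 lower (7.8% and 6.78%). Over the 14255 genes tested in both tables the shares were 1.82% and 2.77%. Median day 10 differences were -0.07 and 0.16 in the 2 classes. Mixl1 had a day 10 difference of 1.18 (adjusted p = 0.677) and Atf4 one of 0.059 (adjusted p = 0.95).

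Promoter words were counted in each class. Promoters were found for 10850 of 13911 protein-coding genes tested, some with more than 1, and none for Mixl1. They covered 253 of 334 protein-coding genes that reversed from lower to higher and 221 of 295 that reversed from higher to lower. The forkhead word TGTTTAC, on either strand, stood in 2.5% of all 13913 promoters found. Its share was 2.36% of 339 promoters for genes that reversed from lower to higher. It was 1.26% of 317 promoters for genes that reversed from higher to lower. The TCF/LEF word stood in 2.62% of all promoters and in 3.54% and 2.52% of those classes. It stood in 1.59% and 3.11% of promoters of genes whose excess or deficit appeared at day 5. Where a day 3 excess or deficit faded, the shares were 1.68% of 358 promoters and 4.87% of 472. In the same order, these appearing and fading classes held the forkhead word in 3.05%, 2.07%, 2.51% and 3.6% of promoters. The T-box word stood in 3.41% of all, and in 1.47% and 2.52% of the reversing classes. For the appearing and fading classes, in the same order, its shares were 4.52%, 1.81%, 3.91% and 3.18%. The streak list had 15 promoters, from 13 of its 17 genes. Of these 15, 3 held the TCF/LEF word, those of Sp5, Mesp1 and Foxa2. The T-box word stood in 1, that of Mesp1, and the forkhead word in 1, that of Cdx2. A match is a word in these letters and not a measured binding site.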

How the data were processed

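RNA-seq of mouse embryoid bodies at days 3 and 5 was analysed in 8 libraries of 4 groups, 2 per group. The deposited values are estimated counts per gene, made with kallisto 0.46.2 on mm10 per the submitters' processing notes, and the files hold them as whole numbers; the labels do not settle whether the libraries kept strand, so overlapping antisense genes cannot be told apart. Totals of 10574194 to 11621032 set the counting precision; the standard errors of the fit also include the spread between libraries. A count model was run with edgeR 4.0.16 in R 4.3.3 (low-count filter, TMM scaling, robust quasi-likelihood test, 4 residual degrees of freedom, Benjamini-Hochberg adjustment over 14430 genes, threshold 0.05), with 1 fit for the interaction, both days and both courses. Day 10 was fitted apart. DESeq2 1.42.0, other scalings, filters and thresholds, a replicate block and leaving out each library were tried.

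Classes follow from the calls on each day. The leading genes are the 5 largest interactions per reversing, appearing or fading class and 3 per same-direction class, taken from protein-coding genes averaging 5 CPM or more whose lines do not overlap on a called day; in each list, the 4 members with the lowest p were also named. A few of these genes are not reported here. Members of the classes, the 28 gene lists and the tests were chosen with earlier results of these data known. Replicate numbers are shared by groups, but deviations of same-numbered libraries correlated by -0.022 to 0.05, so the numbers were not taken to pair them. Gene names came from the GENCODE annotation, which held all 36047 identifiers; promoters came from RefSeq. No fold is given for a gene with at most 3 counts in a group.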

Additional observations from a re-analysis of the deposited data

Results flagged for a closer look

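Each of the following was singled out because the KO effect itself differed between day 3 and day 5 by the interaction test of edgeR; no explanation was weighed. The KO effect moved upward at 1932 genes and downward at 1564. It reversed from lower to higher at 338 genes and from higher to lower at 295, appeared higher at 753 and lower at 775, and faded from higher at 321 and from lower at 487. It kept its direction and grew at 251 genes, and kept it and shrank at 189.

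Among single genes, the interaction was 9.97 for Lhx1, 9.41 for Cyp26a1, 8.79 for Six2, 8.70 for Mixl1 and 7.57 for Aplnr, all lower in KO at day 3 and higher at day 5. It was -5.61 for Chac1, -5.11 for Spon1, -5.03 for Myrf and -4.96 for Synpo2, all higher in KO at day 3 and lower at day 5. With 2 libraries per group, no library could be examined as an outlier.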

How the results depend on the processing

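No gene named by the rule changed the sign of a called interaction in any alternative fit. Counts over all genes under other scalings, the low-count filters and the replicate block stayed within 1.5 times those reported. The balance between directions did change. With a mean of at least 5 CPM required, 1510 genes moved upward and 1603 downward, and 273 reversed from lower to higher and 339 from higher to lower. With no filter, 299 and 318 reversed. Some list medians changed sign: that of neural genes was 0.19, and -0.35 with no filter. That of endothelial genes was -0.38, and 0.27 without day 5 KO library 2. Counts of list members moved further in places. With a mean of at least 5 CPM required, fewer members of these lists were tested. Wnt ligands went from 10 of 16 to 6 of 10 upward, and presomitic genes from 5 of 8 to 2 of 2. Neural genes went from 3 of 13 to 1 of 6 upward, and hypoxia genes from 5 of 16 to 3 of 13 downward. With no filter, primed genes went from 5 to 3 upward. With the replicate block, Hox genes went from 1 to 2 downward and fibroblast genes from 1 to 2 upward. By DESeq2, blood genes went from 4 to 7 downward, Hox genes from 1 to 4, sarcomere genes from 4 to 2, hypoxia genes from 4 to 2 upward and 5 to 3 downward, and fibroblast genes from 1 to 3 upward. At an adjusted p under 0.01, upward counts went from 9 to 4 for Nodal, 5 to 2 for primed, 11 to 7 for Wnt target, 10 to 4 for Wnt ligand, 9 to 4 for epithelial to mesenchymal, 8 to 4 for glycolysis and 5 to 3 for germ cell genes; downward counts went from 7 to 4 for fibroblast, 4 to 1 for sarcomere, 4 to 2 for blood and 18 to 11 for cholesterol genes. The other changes by more than 1.5 times concerned reported counts of at most 3, or hypoxia genes at the stricter threshold. With 2 libraries per group, leaving out a day 5 KO library raised the counts over all genes and leaving out any other library lowered them, and genes near 3 counts in a group cannot be sized. DESeq2's Wald test gave 1198 genes upward and 1117 downward, with 195 reversing from lower to higher and 191 from higher to lower. By it, 487 appeared higher, 285 faded from lower, and 131 grew and 111 shrank in the same direction. Of the genes that edgeR put in each reversing, appearing or fading class, 41.9% to 58% stayed in that class by DESeq2. At an adjusted p under 0.01 the counts were 954 upward, 834 downward, 147 and 124 reversing, 367 and 461 appearing higher and lower, 178 and 277 fading from higher and from lower, 81 growing and 80 shrinking. Requiring at least a doubling, they were 104 and 72 reversing, 463 and 415 appearing, 173 and 254 fading, 58 growing and 80 shrinking. There a called day difference under a doubling counts as absent, so a gene can pass from another class to appearing or fading. Of the 463 and 415 appearing, 334 and 331 were in those classes without the requirement. Of the 173 and 254 fading, 115 and 183 were. The cause of these moves was not tested beyond the stricter thresholds themselves. Leaving out 1 library gave 1117 to 2932 genes upward, 932 to 2689 downward, 181 to 601 and 131 to 590 reversing, 390 to 917 and 437 to 1087 appearing, 152 to 595 and 256 to 675 fading, 77 to 770 growing and 104 to 314 shrinking. With the replicate block, 1846 genes moved upward and 1524 downward, 336 and 299 reversed, 729 and 744 appeared, 303 and 465 faded, 236 grew and 180 shrank.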

Other observations

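The cholesterol synthesis pathway showed a day 5 deficit in KO that the report's lists do not hold; the gene lists of this section were written after values had been seen, so their counts are descriptions. Of 22 cholesterol synthesis and uptake genes, 18 moved downward in the interaction and 1 upward. Of the 18, 10 had a deficit that appeared at day 5, 6 a deficit that grew and 2 a reversal. At day 5, 21 of the 22 were lower in KO; 18 rose in control between the days, while in KO 9 fell and none rose. Dhcr7, which makes cholesterol in its last step, was 72.4 and 68.9 CPM in control and 91 and 89.8 CPM in KO at day 3, and 239 and 211 CPM in control and 68 and 54.7 CPM in KO at day 5. KO was slightly higher at first and far lower later, without overlap on either day (interaction -2.23 ± 0.14, edgeR adjusted p = 2.07e-05). Insig1, a sterol sensor of the pathway, was 117 and 116 CPM in control and 93.3 and 92.7 CPM in KO, then 279 and 259 CPM in control and 83.8 and 64.7 CPM in KO (interaction -1.53 ± 0.15, adjusted p = 0.000252). Summed over the list, control went from 3593 and 3630 CPM to 5996 and 6547 CPM, and KO from 3073 and 3075 CPM to 2169 and 2886 CPM. The downward count was 12 without either day 3 control library or day 5 control library 1 and 21 without day 5 KO library 1.

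Amino acid transporters and tRNA synthetases also moved downward in part. Of 11 amino acid transporters, 10 moved downward and none upward by edgeR, DESeq2 or unadjusted p, and of 20 cytosolic tRNA synthetases 10 moved downward and 2 upward. Slc3a2, the shared heavy chain of several transporters, was 196 and 183 CPM in control and 244 and 242 CPM in KO at day 3, and 229 and 229 CPM in control and 144 and 166 CPM in KO at day 5 (interaction -0.92 ± 0.097, adjusted p = 0.0002). The alanyl-tRNA synthetase Aars was 318 and 321 CPM in control and 424 and 415 CPM in KO, then 356 and 352 CPM in control and 275 and 277 CPM in KO (interaction -0.75 ± 0.058, adjusted p = 3.49e-05). Of 20 chaperones of the endoplasmic reticulum, 12 moved downward and 1 upward, and 6 of the 12 were higher in KO at day 3 alone. Hsp90b1, a chaperone of the endoplasmic reticulum, was 635 and 634 CPM in control and 973 and 967 CPM in KO at day 3, and 943 and 885 CPM in control and 939 and 814 CPM in KO at day 5 (interaction -0.67 ± 0.089, adjusted p = 0.000763). The word TGATGNAAT, a form of the element bound by Atf4, stood in 0.474% of the 13913 promoters and in none of the 21 promoters of the stress list, searched on both strands over the same 300 bases.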
